A study of Rattus norvegicus with 78 samples.

Results

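The genes described here are 10 genes of connective tissue and of mesenchymal cells, Dcn, Lum, Bgn, Sparc, Vim, Col1a1, Col1a2, Col3a1, Col4a1 and Col4a2, as measured in RNA of rat sperm samples. They were chosen by their symbols in the platform annotation, and each was read from its probe set of highest mean over the arrays. A probe set was found for 9 of the 10, with 1 probe set each, out of 14506 genes that had a probe set of a single symbol. Col4a2 was not analysed here, so the basement membrane collagens were represented by Col4a1 alone. Of the others, Dcn, Lum, Bgn, Col1a1, Col1a2 and Col3a1 are fibroblast matrix genes, while Vim and Sparc are made by many cell types.

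The study exposed Fischer 344 rats, over 3 months per the text of the series, to 1,2-dibromo-3-chloropropane (DBCP), a soil fumigant that is toxic to male germ cells, or to corn oil. For each sample the cauda epididymides were punctured to release sperm, the tissue pieces were removed by a slow spin, the pellet was treated briefly with an ammonium chloride buffer of the kind that lyses red cells, and the large RNA fraction was hybridised with a biotin label. There were 78 arrays, labelled as biological replicates, 1 per sample. The question was whether exposure changed sperm transcripts and whether any change remained after recovery. The groups were corn oil without recovery (20 arrays), DBCP at 5 mg/kg/day without recovery (20 arrays), corn oil with recovery (19 arrays) and DBCP at 5 mg/kg/day with recovery (19 arrays). The sources used here state neither the age of the rats nor the length of the recovery. Arrays without recovery are called end of exposure arrays below.

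Values are log2 levels per probe set as deposited, over 29214 probe sets. The array medians lay between 6.55 and 6.75, and 6 arrays had a limma array weight under 0.5 (DBCP end of exposure replicates 2, 13 and 20, corn oil recovery replicate 11, DBCP recovery replicates 7 and 15). The labels name the tissue as sperm and the title of the series names testis. All 15 genes of a sperm list were on the array, and their mean level lay between 9.79 and 12.27. Of a list of 14 Sertoli and Leydig cell genes, 12 were on the array, and their mean level lay between 6.43 and 6.84. In bulk samples such as these, fewer cells of a type and less RNA per cell cannot be told apart.

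Connective tissue is a mesh of fibrillar collagens laid down mainly by fibroblasts, in which small leucine-rich proteoglycans such as decorin, lumican and biglycan coat the fibrils and set their spacing. Epithelia and vessels rest instead on a basement membrane, a thin sheet built on a network of type IV collagen. In the epididymis, a sheath of fibroblasts and smooth muscle with its vessels surrounds the duct in which sperm are stored, and leukocytes lie within the wall. Mature sperm carry RNA left from spermatid development, and transcripts of matrix genes are known as products of somatic cells.

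Stretches of promoter are shown for Col1a2, a fibrillar collagen gene, and for Vim, because these genes fell into different sets by their variation between arrays, and the gap between Col4a1 and Col4a2 is shown because these collagen genes are transcribed away from each other and share it. The sequences are from RefSeq, build GRCr8, on the plus strand and 5′ to 3′, and promoters of 6 of the 10 genes were found in that table. Capitals mark 3 short motifs searched on both strands in the 250 bases before the annotated start, the TATA box (TATAAA), the CCAAT box (CCAAT, or ATTGG on the other strand) and the GC box (GGGCGG, or CCGCCC on the other strand). The marked motifs did not overlap each other.
Col1a2, chr4:33518307-33518416: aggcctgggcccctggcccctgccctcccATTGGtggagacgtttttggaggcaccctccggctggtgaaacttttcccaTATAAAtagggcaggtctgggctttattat
Vim, chr17:81577011-81577208: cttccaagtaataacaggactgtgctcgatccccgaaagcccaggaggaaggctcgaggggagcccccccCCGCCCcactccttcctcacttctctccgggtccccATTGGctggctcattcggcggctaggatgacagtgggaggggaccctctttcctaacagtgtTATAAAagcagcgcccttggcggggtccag
Gap between Col4a1 and Col4a2, chr16:84885521-84885596: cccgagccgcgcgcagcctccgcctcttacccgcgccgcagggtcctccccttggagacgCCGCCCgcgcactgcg
The Col1a2 stretch runs from 250 bases before the annotated start to 30 bases past the first letter of the TATA box, and it held a CCAAT box beginning 221 bases before the annotated start and a TATA box beginning 170 bases before it. The Vim stretch, bounded in the same way, held a GC box at 180, a CCAAT box at 144 and a TATA box at 82 bases before the start. The gap of 76 bases held a GC box 16 bases before the Col4a1 start, and no TATA box letters were in it. Of 33469 promoters searched over the same 250 bases, 12.9% held the TATA box letters, 34.0% the CCAAT box and 30.5% the GC box. These are matches of letters and not measured binding sites.

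Exposure to DBCP was followed by no called change in these genes, while the time of collection separated some of them. The tests were limma fits over all 29214 probe sets with Benjamini-Hochberg adjustment and a threshold of 0.05, and each difference is on the log2 scale and stands with its standard error. Between DBCP and corn oil, 0 of the 9 genes passed at the end of exposure, where 0% of all probe sets passed, and 0 passed after recovery, where 0% of all probe sets passed. From the end of exposure to recovery in corn oil rats, 4 of the 9 genes passed, where 24.3% of all probe sets did. Dcn and Vim were higher (11.5% of all probe sets were called higher), and Col1a1 and Col4a1 were lower (12.8% were called lower). In DBCP rats 3 of the 9 passed the same comparison, where 13.5% of all probe sets did, and all 3 (Dcn, Lum and Vim) were higher, where 7.28% were called higher.

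**Figure D1:**
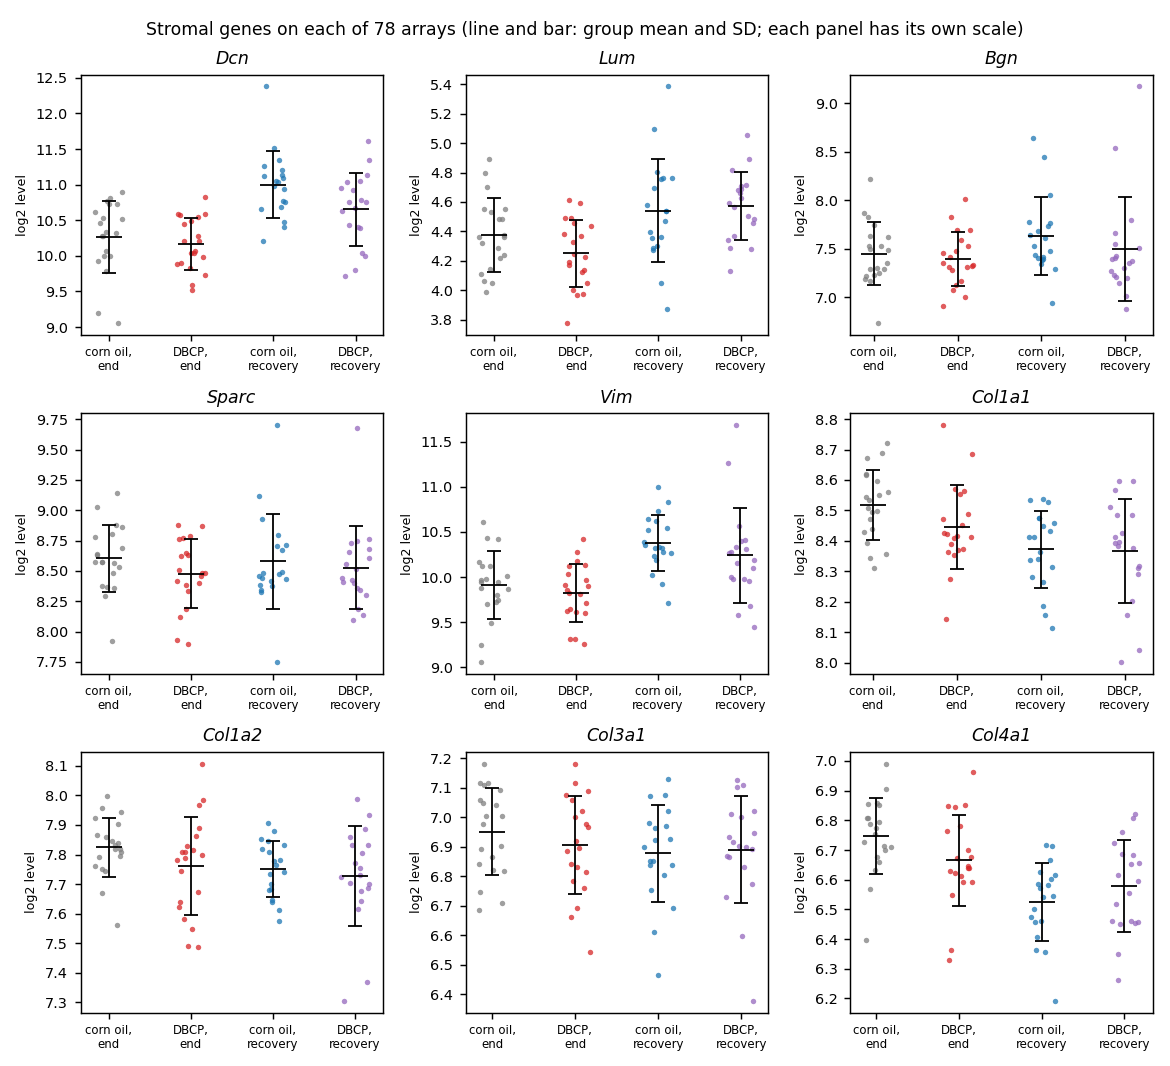
The log2 level of each of the 9 genes on each of 78 arrays, with 1 panel per gene on its own scale, 1 point per array and a line and bar for the group mean and SD. The Dcn and Vim points of both recovery groups sit above those of the end of exposure groups with overlap, those of Col4a1 in corn oil rats sit lower after recovery, those of Lum in DBCP rats sit higher and those of Col1a1 in corn oil rats lower with overlap, and the Bgn, Sparc, Col1a2 and Col3a1 panels overlap closely.

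Decorin, the product of Dcn, binds collagen fibrils and also growth factors. In corn oil rats at the end of exposure its level ran from 9.06 to 10.89 with a median of 10.32 (mean 10.27 ± 0.50 SD, n = 20). In DBCP rats at that time it ran from 9.52 to 10.82 with a median of 10.13 (mean 10.17 ± 0.37 SD, n = 20). The 2 groups overlapped over nearly their whole range, with 0 DBCP arrays outside the corn oil range, and the difference of -0.10 ± 0.14 did not pass (limma adjusted p = 0.779). After recovery the corn oil arrays ran from 10.21 to 12.38 with a median of 11.04 (mean 11.00 ± 0.47 SD, n = 19). The DBCP arrays ran from 9.72 to 11.62 with a median of 10.75 (mean 10.65 ± 0.51 SD, n = 19). The groups again overlapped, and 14 of 19 DBCP arrays lay below the corn oil mean. The difference of -0.35 ± 0.15 had an unadjusted p of 0.021 in limma, the only one of the 9 under 0.05 in that comparison, and did not pass (limma adjusted p = 0.983). In the same comparison all 15 genes of a list of leukocyte markers were below 0 with a median of -0.19, and 5 of 6 red cell genes were, with a median of -0.29, none passing. With the mean leukocyte level as a covariate the Dcn difference was -0.15 ± 0.13. That level itself differed after recovery, with a mean of 9.10 in corn oil and 8.91 in DBCP rats. The part of leukocytes in the Dcn difference was not tested.

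Over time, Dcn had the largest difference of the 9 genes under both treatments. In corn oil rats it rose by 0.73 ± 0.15, or 1.66-fold (limma adjusted p = 0.000154). Of the 19 recovery arrays 18 lay above the earlier mean, and 12 lay above the highest end of exposure array. In DBCP rats it rose by 0.49 ± 0.15, or 1.40-fold (limma adjusted p = 0.0152), with 15 of 19 arrays above the earlier mean and 7 outside the earlier range. The rises under the 2 treatments were not shown to differ (interaction -0.25 ± 0.21, limma adjusted p = 0.581). The group means thus ran, from lowest to highest, from DBCP and corn oil at the end of exposure to DBCP and then corn oil after recovery. Neither treatment difference passed the adjusted threshold.

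Lumican, encoded by Lum, is the close relative of decorin that keeps collagen fibrils thin, as in the cornea. Its level in corn oil rats ran from 3.99 to 4.89 with a median of 4.36 (mean 4.38 ± 0.25 SD) at the end of exposure and from 3.87 to 5.39 with a median of 4.54 (4.54 ± 0.35) after recovery. In DBCP rats it ran from 3.78 to 4.61 with a median of 4.24 (4.25 ± 0.23) and then from 4.13 to 5.05 with a median of 4.60 (4.57 ± 0.23). Its mean over the arrays was below the median of all probe sets, so that Lum left the fit when dim probe sets were left out. The recovery arrays of DBCP rats stood higher with overlap, 18 of 19 above the earlier mean and 9 outside the earlier range. That rise of 0.32 ± 0.08, or 1.25-fold, passed (limma adjusted p = 0.00531), whereas the difference of 0.17 ± 0.08 in corn oil rats did not (adjusted p = 0.140). The 2 time differences were not shown to differ from each other (interaction 0.15 ± 0.12, limma adjusted p = 0.555). Between treatments Lum had differences of -0.12 ± 0.08 before and 0.03 ± 0.09 after recovery, and neither passed.

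Biglycan, encoded by Bgn, is the third proteoglycan and is released when matrix is broken down. At the end of exposure it ran from 6.74 to 8.22 with a median of 7.42 in corn oil rats (mean 7.45 ± 0.32 SD) and from 6.91 to 8.02 with a median of 7.34 in DBCP rats (7.40 ± 0.28). After recovery it ran from 6.94 to 8.64 with a median of 7.53 in corn oil rats (7.63 ± 0.40) and from 6.88 to 9.18 with a median of 7.38 in DBCP rats (7.50 ± 0.53). All 4 groups overlapped. The highest values came from single arrays, corn oil recovery replicate 4 and DBCP recovery replicate 19. The time difference was 0.18 ± 0.12 in corn oil rats and 0.10 ± 0.12 in DBCP rats, and the treatment difference was -0.06 ± 0.12 before recovery and -0.13 ± 0.12 after it, with none passing.

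Sparc encodes osteonectin, a matrix-associated protein that binds collagen and is secreted by fibroblasts and endothelium among other cells. Its median was 8.57 in corn oil rats (range 7.92 to 9.14, mean 8.60 ± 0.28 SD) and 8.48 in DBCP rats (7.90 to 8.88, mean 8.48 ± 0.28) at the end of exposure. After recovery it was 8.47 in corn oil rats (7.75 to 9.70, mean 8.58 ± 0.39) and 8.45 in DBCP rats (8.10 to 9.68, mean 8.53 ± 0.34). The groups could not be separated, and both high values after recovery were those of the same 2 arrays that were highest for Bgn. The time differences were -0.02 ± 0.10 and 0.05 ± 0.10, with 95% intervals of -0.23 to 0.18 in corn oil rats and -0.15 to 0.25 in DBCP rats. A change of the size seen for Dcn in corn oil rats lay outside both intervals.

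Vimentin, encoded by Vim, is the intermediate filament of mesenchymal cells and also of leukocytes and endothelium. Its level in corn oil rats ran from 9.06 to 10.61 with a median of 9.94 (mean 9.91 ± 0.37 SD) at the end of exposure and from 9.71 to 11.00 with a median of 10.34 (10.38 ± 0.31) after recovery. The DBCP arrays ran from 9.26 to 10.42 with a median of 9.84 (9.83 ± 0.32) and then from 9.45 to 11.68 with a median of 10.19 (10.24 ± 0.53). The recovery arrays stood higher with overlap. Vim rose by 0.47 ± 0.12, or 1.38-fold, in corn oil rats (limma adjusted p = 0.00369, 18 of 19 arrays above the earlier mean). The rise in DBCP rats was 0.42 ± 0.12, or 1.33-fold (limma adjusted p = 0.0138, 16 of 19). The interaction was -0.05 ± 0.17 (limma adjusted p = 0.901), and the treatment differences of -0.09 ± 0.12 before and -0.14 ± 0.12 after recovery did not pass.

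The fibrillar collagens are the bulk of connective tissue, with Col1a1 and Col1a2 giving the chains of type I collagen and Col3a1 that of type III, found in reticular and vessel walls. Col1a1 ran from 8.31 to 8.72 with a median of 8.52 (mean 8.52 ± 0.12 SD) in corn oil rats at the end of exposure. After recovery it ran from 8.11 to 8.54 with a median of 8.41 (8.37 ± 0.13). The recovery arrays stood lower with overlap, 16 of 19 below the earlier mean, and Col1a1 fell by 0.15 ± 0.05 (limma adjusted p = 0.0152). Its level in DBCP rats ran from 8.14 to 8.78 with a median of 8.42 (8.45 ± 0.14) and then from 8.00 to 8.60 with a median of 8.39 (8.37 ± 0.17). There the difference of -0.08 ± 0.05 did not pass (adjusted p = 0.257). The interaction of 0.07 ± 0.06 did not show the time differences to be unequal (limma adjusted p = 0.638).

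Col1a2, the partner chain of Col1a1, had medians of 7.83 and 7.79 in corn oil and DBCP rats at the end of exposure (ranges 7.56 to 8.00 and 7.49 to 8.11). After recovery the medians were 7.77 and 7.73 (ranges 7.57 to 7.91 and 7.31 to 7.99). Its time differences were -0.07 ± 0.04 in corn oil rats and -0.03 ± 0.04 in DBCP rats (limma adjusted p = 0.227 and 0.662). Col3a1 had medians of 6.99 and 6.91 at the end of exposure (ranges 6.69 to 7.18 and 6.54 to 7.18) and of 6.90 in both treatments after recovery (6.47 to 7.13 and 6.38 to 7.13). Its time differences were -0.07 ± 0.05 and -0.02 ± 0.05 (limma adjusted p = 0.306 and 0.879). The groups overlapped over nearly their whole range for both genes, and the 95% intervals of the 4 time differences lay between -0.18 and 0.09.

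Col4a1 encodes a chain of the basement membrane collagen. Across corn oil rats it ran from 6.40 to 6.99 with a median of 6.76 (mean 6.75 ± 0.13 SD) at the end of exposure and from 6.19 to 6.72 with a median of 6.55 (6.53 ± 0.13) after recovery. All 19 recovery arrays lay below the earlier mean, although the ranges overlapped. Col4a1 fell by 0.22 ± 0.05 (limma adjusted p = 0.000311), a level 1.17-fold lower. Across DBCP rats it ran from 6.33 to 6.96 with a median of 6.64 (6.67 ± 0.15) and then from 6.26 to 6.82 with a median of 6.59 (6.58 ± 0.16). The difference of -0.09 ± 0.05 did not pass there (adjusted p = 0.213). The interaction was 0.14 ± 0.07, with an unadjusted p of 0.0441 and a limma adjusted p of 0.456, so the treatments were not shown to differ. Its treatment differences were -0.08 ± 0.05 before and 0.05 ± 0.05 after recovery.

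**Figure D2:**
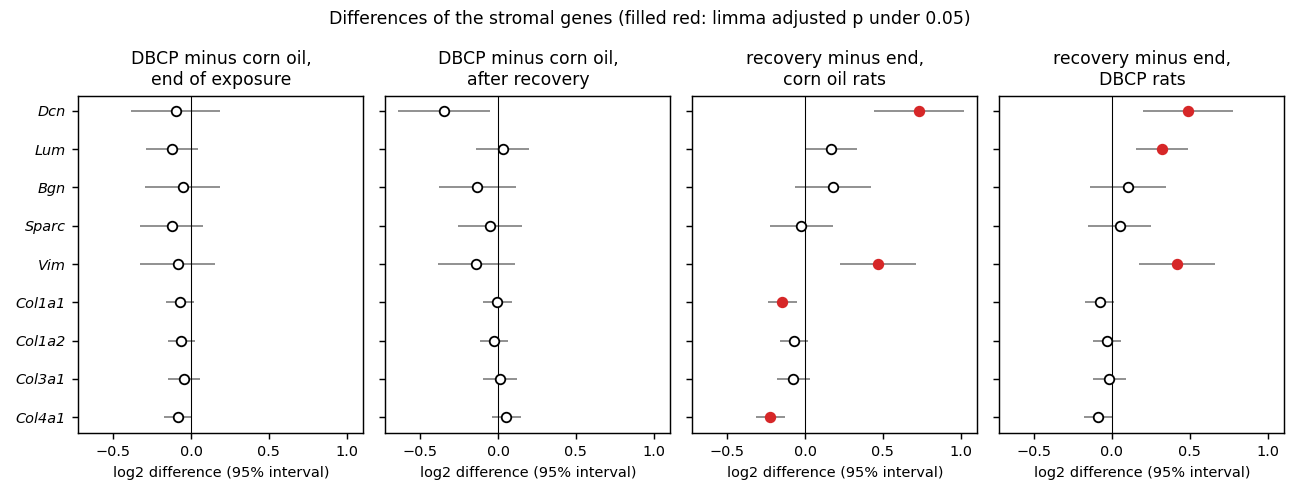
Log2 differences of the 9 genes with their 95% intervals in 4 comparisons, with filled red points for limma adjusted p under 0.05. No point is filled in the 2 comparisons of DBCP with corn oil; Dcn and Vim are filled to the right in both time comparisons, Lum in DBCP rats alone, and Col1a1 and Col4a1 to the left in corn oil rats.

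Across the 9 genes together, all 9 differences between DBCP and corn oil at the end of exposure were below 0, between -0.12 and -0.05 with a median of -0.08. Over all probe sets the median was -0.02 and 62.0% were below 0. Other lists leaned above or below 0 in this comparison too, none with a passing gene. All 15 sperm genes were above 0 with a median of 0.40, and their mean level ran from 9.79 to 11.45 in corn oil and from 10.31 to 12.27 in DBCP rats. Below 0 were 12 of 15 leukocyte genes (median -0.14) and all 6 red cell genes on the array (median -0.20). Interstitial matrix genes (19 of 21, median -0.07) and other basement membrane genes (10 of 10, -0.06) lay below 0 as well. So did 13 of 14 fibroblast surface genes (-0.08) and 11 of 13 endothelial genes (-0.05). Genes for making collagen were less uniform (13 of 21, -0.01), and 10 of 15 epididymal epithelial genes were above 0 (0.04). With the leukocyte level as a covariate Dcn, Bgn and Vim were above 0 and the other 6 below, and with the sperm level Col3a1 alone was above 0, with 0 passing in either fit. The shares of all probe sets passing in those fits are not given here. The lowest limma adjusted p among the 9 was 0.478, and 0 of the 9 had an unadjusted p under 0.05. Over all probe sets 3386 (11.6%) had an unadjusted p under 0.05 in limma and 3270 in a plain t statistic, which called 0 after adjustment. After recovery the median of the 9 was -0.02 beside 0.01 for all probe sets, and 6 were below 0. There 1084 probe sets (3.71%) had an unadjusted p under 0.05 in limma and 1010 in the plain t statistic, which again called 0. The interaction was called for 0% of all probe sets. It had an unadjusted p under 0.05 for 3170 (10.9%) in limma, among them Col4a1 alone of the 9, and for 3083 in the plain t statistic, which called 0.

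The mean level of the 6 fibroblast genes on an array minus that of Col4a1, taken as a description, was 0.82 ± 0.21 (SD, n = 20) in corn oil and 0.82 ± 0.18 (n = 20) in DBCP rats at the end of exposure. It was 1.17 ± 0.23 (n = 19) and 1.04 ± 0.25 (n = 19) after recovery. Of the 6 fibroblast genes, Dcn rose, Col1a1 fell and 4 did not pass in corn oil rats, and Dcn and Lum rose and 4 did not pass in DBCP rats. The median time difference of the 6 was 0.05 in corn oil rats and 0.04 in DBCP rats. All 4 collagens had time differences below 0 under both treatments, beside medians over all probe sets of -0.04 in corn oil rats and 0.01 in DBCP rats.

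The time comparison sets rats collected without recovery against rats collected after it, and recovery cannot be told apart from anything else that differed between the collections. Marker lists of other cell types differed between the collections too. The leukocyte list, 15 of 15 on the array, had 9 genes higher and 0 lower in corn oil rats and 9 higher and 1 lower in DBCP rats. Its mean level ran from 8.29 to 9.28 in corn oil rats and from 8.17 to 8.98 in DBCP rats at the end of exposure, and from 8.67 to 9.62 and from 8.51 to 9.38 after recovery. Its genes include Cd74, which guides class II molecules in antigen-presenting cells (0.77 ± 0.10 in corn oil and 0.79 ± 0.10 in DBCP rats, limma adjusted p = 3.26e-08 and 2.41e-08). Fcer1g, an Fc receptor chain (0.91 ± 0.12 and 0.65 ± 0.12), and Ptprc, the common leukocyte antigen (0.56 ± 0.10 and 0.57 ± 0.10), also rose. The sperm list had 0 genes higher and 9 of 15 lower in corn oil rats, and 13 of 15 lower in DBCP rats, with Akap4 of the sperm tail at -0.72 ± 0.19 and -1.37 ± 0.19.

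With the leukocyte level as a covariate, 0 of the 9 genes passed in corn oil rats, where 2.4% of all probe sets did, and 1, Lum, in DBCP rats, where 21.4% did. Dcn then had time differences of 0.33 and 0.17 (limma adjusted p = 0.199 and 0.389), and Vim had -0.06 and 0.00 (adjusted p = 0.739 and 0.994). Col4a1 and Col1a1 had -0.11 and -0.08 in corn oil rats (limma adjusted p = 0.191 and 0.456). With the sperm level as a covariate, all 4 collagens passed as lower under both treatments, with differences from -0.28 to -0.14 in corn oil rats and from -0.20 to -0.16 in DBCP rats. In that fit 48.3% and 28.9% of all probe sets passed, and 30.7% and 17.3% of all were called lower, beside 12.8% and 6.19% called lower without the covariate. These covariates themselves differed between the times of collection, and the part of leukocytes and of the share of sperm RNA in the result was not tested beyond these fits.

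The labels number the replicates 1 to 20, and the numbers up to 10 and those above were also fitted apart. Over all probe sets 16.3% and 1.32% passed in corn oil rats, and 10.4% and 1.73% in DBCP rats, in the first and the second set. Dcn in corn oil rats passed in both sets (0.72 and 0.75, limma adjusted p = 0.0154 and 0.0489). In DBCP rats it was 0.39 and 0.59 and passed in neither. Vim passed in neither set under either treatment, with values between 0.37 and 0.56. Col4a1 in corn oil rats was -0.25 and -0.19 and passed in the first set alone, as did Col1a1 (-0.22 and -0.07) and, in DBCP rats, Lum (0.37 and 0.27). Each set held 9 or 10 arrays per group, and directions of the called genes were the same in both.

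The genes differed in how much they varied among arrays of a group. The within-group SD was 0.47 for Dcn, higher than for 97.7% of all probe sets, 0.39 for both Bgn and Vim (94.5% and 94.4%) and 0.33 for Sparc (88.5%). Lum had 0.27 (79.3%). By contrast the collagens varied little, with 0.17 for Col3a1 (31.8%), 0.14 for Col4a1 (14.2%), 0.14 for Col1a1 (11.8%) and 0.14 for Col1a2 (10.4%), beside a median of 0.19 over all probe sets. The genes that varied most were thus the proteoglycans with Sparc and Vim, and those that varied least were the collagens.

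The variation was shared in 2 sets of genes that did not follow the division into fibroblast and basement membrane genes. Correlations were taken over the 78 arrays on deviations from the group means, so that group differences did not enter, and all values of an array share its hybridisation and scaling. In all 108 were computed, 36 between members and 72 between a member and a marker list, each with a permutation test within groups of 100000 resamples (smallest p 1e-05) and Benjamini-Hochberg adjustment. In the first set Bgn and Sparc had r = 0.81 (rho = 0.74), Bgn and Vim 0.75 (0.61), Dcn and Sparc 0.73 (0.68) and Dcn and Bgn 0.59 (0.61). Each of these had a permutation p of 1e-05, the smallest possible, and an adjusted p of 3.86e-05. For each pair the 2 arrays farthest from the median of the gene or list named second were also left out. Extremes of the gene named first could stay in. Without these 2 arrays the values were 0.72, 0.67, 0.66 and 0.68. Within the 4 groups Bgn and Sparc ran from 0.59 to 0.90.

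In the second set the fibrillar collagens went with the basement membrane collagen. Col1a1 and Col1a2 had r = 0.73 (rho = 0.65), Col1a1 and Col3a1 0.65 (0.58), Col3a1 and Col4a1 0.60 (0.57) and Col1a1 and Col4a1 0.54 (0.50), each with a permutation p of 1e-05 and an adjusted p of 3.86e-05 for r. Without the 2 farthest arrays these were 0.67, 0.58, 0.57 and 0.56. Part of them lay in the arrays of low weight. Without these 6 arrays Col1a2 and Col4a1 went from 0.55 to 0.38, and Col1a1 and Col4a1 from 0.54 to 0.42. Of DBCP recovery replicate 7 and DBCP end of exposure replicate 20, each was the lowest of its group for all 4 collagens. Their array medians were 6.55 and 6.61, toward the low end of all arrays. The group means of Col4a1 (6.53 to 6.75) and Col3a1 (6.88 to 6.95) lay near the array medians of 6.55 to 6.75. Those of Col1a1 and Col1a2 were higher, between 7.73 and 8.52. The part of weak signal in these correlations was not tested.

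Between the sets the relations were weaker and differed in sign. Col1a2 and Sparc had r = 0.38 (rho = 0.43, permutation adjusted p = 0.00182), and Col1a1 and Sparc 0.31 (rho = 0.33, adjusted p = 0.0157), which were 0.32 and 0.26 without the 2 farthest arrays. Dcn and Col1a1, both fibroblast genes, had r = -0.01 (rho = 0.01, permutation adjusted p = 0.941). Dcn and Col3a1 had r = -0.28 (rho = -0.30, adjusted p = 0.0263), and Dcn and Col4a1 -0.29 (rho = -0.25, adjusted p = 0.0206). Without the 2 farthest arrays the 3 Dcn values were 0.02, -0.31 and -0.24. Lum stood in neither set. It lies next to Dcn on chromosome 7 with 0 annotated genes between them, and the 2 had r = 0.30 (rho = 0.23, permutation adjusted p = 0.0179), which was 0.16 without the 2 farthest arrays and ran from -0.06 to 0.52 within the groups.

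**Figure D3:**
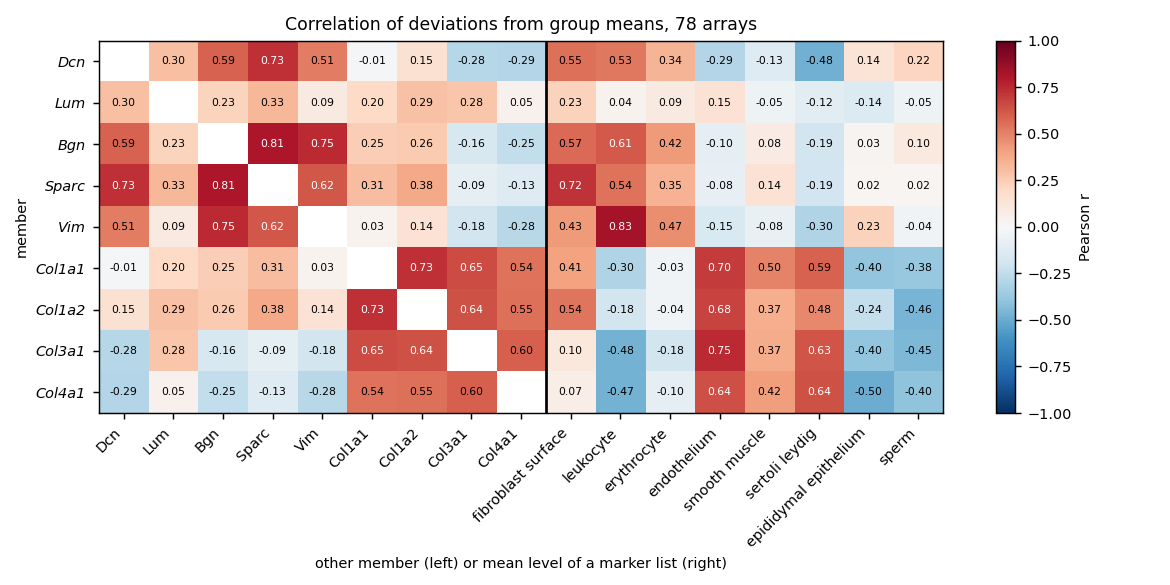
Pearson correlation of deviations from the group means over 78 arrays, among the 9 genes (left of the line) and between each gene and the mean level of 8 marker lists (right of it), with red for positive and blue for negative values. Dcn, Bgn, Sparc and Vim form 1 red block and the 4 collagens another, and the leukocyte column is red beside the first block (Vim 0.83) and blue beside the second (Col4a1 -0.47).

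Several marker lists also went with one set or the other, and over all arrays together the fibroblast surface list went with genes of both. Vim followed the leukocyte level at r = 0.83 (rho = 0.83, permutation adjusted p = 3.86e-05), at 0.82 without the 2 farthest arrays and from 0.79 to 0.87 within the groups. Bgn, Sparc and Dcn followed it at 0.61, 0.54 and 0.53 (rho = 0.54, 0.47 and 0.49, adjusted p = 3.86e-05 for each r), but Bgn and Sparc had only 0.16 each in DBCP rats at the end of exposure. The fibroblast surface list, 14 of 16 on the array, went with Sparc at 0.72 (rho = 0.66), with Dcn at 0.55 and also with the type I collagen genes, Col1a2 at 0.54 (rho = 0.51) and Col1a1 at 0.41 (0.38), while Col3a1 and Col4a1 had 0.10 and 0.07. Within the groups Sparc ran from 0.66 to 0.81, Dcn from 0.40 to 0.80 and Col1a2 from 0.20 to 0.81. The other collagens changed sign, Col1a1 from -0.07 to 0.68, Col3a1 from -0.43 to 0.57 and Col4a1 from -0.36 to 0.53. Each collagen was lowest in corn oil rats after recovery and highest in DBCP rats at the end of exposure. The collagens also went with the endothelial list, 13 of 14 on the array, Col3a1 at 0.75 (rho = 0.71), Col1a1 at 0.70 (0.67) and Col4a1 at 0.64 (0.58). They went with the Sertoli and Leydig list as well, from 0.48 for Col1a2 to 0.64 for Col4a1, and with the smooth muscle list, from 0.37 for Col1a2 to 0.50 for Col1a1. Col4a1 had -0.50 (rho = -0.48) with the epididymal epithelial list, -0.47 (-0.51) with the leukocyte list and -0.40 (-0.25) with the sperm list. With the epididymal epithelial list Col1a1 and Col3a1 each had -0.40 and Col1a2 had -0.24. Without the arrays of low weight Col4a1 had 0.48 with the endothelial list, -0.45 with the epididymal epithelial list and -0.21 with the sperm list. The endothelial level ran from 6.47 to 6.66 in corn oil rats at the end of exposure and from 6.36 to 6.58 after recovery, and its part in the collagen levels was not tested.

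**Figure D4:**
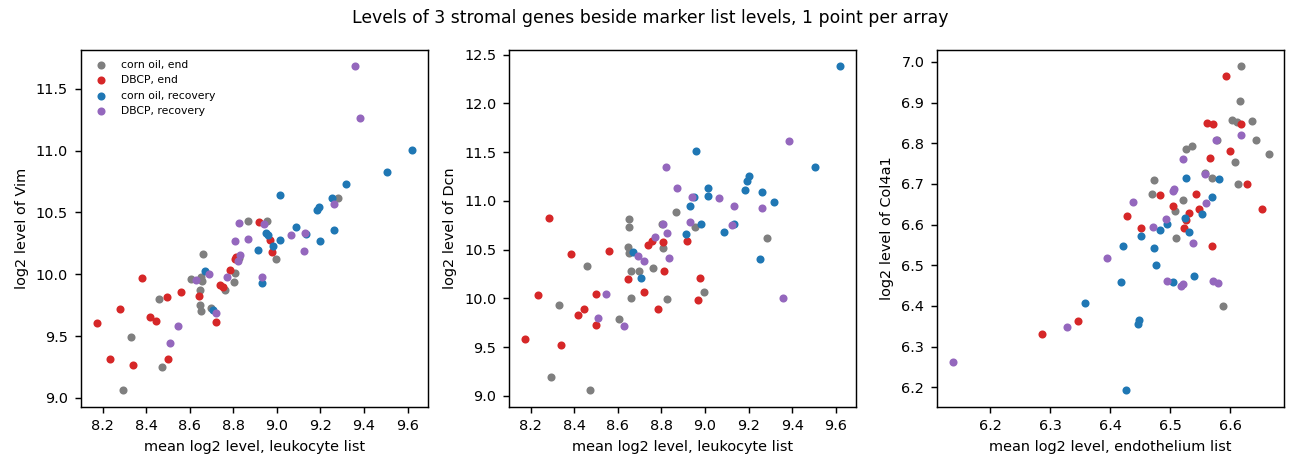
Log2 levels of Vim and Dcn against the mean level of the leukocyte list, and of Col4a1 against that of the endothelial list, with 1 point per array coloured by group. Vim is higher at higher leukocyte levels in all 4 groups (r = 0.83 on deviations from the group means), Dcn is so with more scatter (r = 0.53), and the lowest Col4a1 values lie at low endothelial levels.

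Single arrays stood at the ends of several genes at once. Corn oil recovery replicate 4 was the highest of its group for 5 genes, Dcn (12.38), Lum (5.39), Bgn (8.64), Sparc (9.70) and Vim (11.00), and its leukocyte level of 9.62 was the highest of its group. DBCP recovery replicate 19 was the highest for 5 genes, among them Bgn (9.18) and Sparc (9.68), and corn oil recovery replicate 9 was the lowest for 4. When each of the 78 arrays was left out in turn, the called genes passed in all 78 fits. The Dcn difference in corn oil rats then ran from 0.66, without corn oil recovery replicate 4, to 0.78.

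Other genes of the matrix were counted by list, and their counts stand beside 11.5% of all probe sets called higher and 12.8% lower in corn oil rats, and 7.28% and 6.19% in DBCP rats. Of 26 interstitial matrix genes 21 were on the array, and in corn oil rats 3 rose and 1 fell over time, a number near or under those shares. Ogn, encoding osteoglycin, another small proteoglycan, rose by 0.59 ± 0.10 (limma adjusted p = 2.55e-05) and by 0.48 ± 0.10 in DBCP rats (adjusted p = 0.000614). Efemp1, a fibulin, rose by 0.26 ± 0.09 and Col12a1, a fibril-associated collagen, by 0.14 ± 0.04 in corn oil rats. The median of the 21 was 0.00 in corn oil rats and 0.05 in DBCP rats, where 3 rose and 0 fell. Col5a1, which starts fibril assembly with type I collagen, was the 1 that fell in corn oil rats (-0.12 ± 0.04, limma adjusted p = 0.0392; named after its value was seen).

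Of 20 other basement membrane genes 10 were on the array, and all 10 had time differences below 0 in both treatments. Of these 5 fell and 0 rose in corn oil rats, with a median of -0.12 beside -0.04 for all probe sets, and in DBCP rats 0 passed, with a median of -0.04. Lamb3 and Lama1, laminin chains, fell by 0.21 ± 0.06 and 0.17 ± 0.05 in corn oil rats (limma adjusted p = 0.00671 and 0.00911). Agrn, encoding the heparan sulfate proteoglycan agrin, fell by 0.14 ± 0.04 (adjusted p = 0.00473). With quantile normalization or centring on the array median 3 of the 10 fell in corn oil rats, again with all 10 below 0. The group means of the level of this list (6.69 to 6.81) lay near the array medians of 6.55 to 6.75. The part of weak signal in these differences was not tested.

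Of 22 genes for making collagen 21 were on the array, with 3 higher and 2 lower in corn oil rats and 1 and 1 in DBCP rats, again close to the shares over all probe sets. Ppib, a prolyl isomerase of the endoplasmic reticulum, rose by 0.49 ± 0.12 in corn oil rats (limma adjusted p = 0.00128). P4hb, the protein disulfide isomerase that is also a subunit of prolyl hydroxylase, rose by 0.28 ± 0.10, and Crtap, which forms the prolyl 3-hydroxylation complex with Ppib, by 0.26 ± 0.08. Ppib and P4hb serve all secretory cells. Of the 15 matrix proteases and inhibitors, 1 rose and 4 fell in corn oil rats and 1 rose in DBCP rats. The riser was Mmp9, a gelatinase that leukocytes also make (0.39 ± 0.08, limma adjusted p = 0.00027, and 0.27 ± 0.08 in DBCP rats). Mmp11 (-0.15 ± 0.06) and Timp4 (-0.14 ± 0.05), a protease inhibitor, were among the 4 that fell, of which 1 passed with quantile normalization and 0 with median centring.

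Of the 14 fibroblast surface genes on the array 2 rose in corn oil rats, Cd34 (0.33 ± 0.10, limma adjusted p = 0.0142), which endothelium also carries, and Ly6c (0.24 ± 0.09, adjusted p = 0.0457). In DBCP rats 1 rose. Over the 14 genes 8 were above 0 in corn oil rats, with a median of 0.02. Smooth muscle genes, 11 of 12 on the array, had 0 higher and 3 lower in corn oil rats (Actg2 -0.16 ± 0.05, Smtn -0.15 ± 0.04 and Lmod1 -0.13 ± 0.05) and 0 passing in DBCP rats. Endothelial genes had 0 higher and 4 lower (Esam and Egfl7 each -0.20 ± 0.05, Robo4 -0.14 ± 0.05) and 1 lower in DBCP rats. Sertoli and Leydig genes had 4 lower and 2 lower (Cyp11a1 -0.18 ± 0.05, Gata4 -0.17 ± 0.06 and Cyp17a1 -0.16 ± 0.06 in corn oil rats). With quantile normalization the counts of lower genes in corn oil rats were 2 for smooth muscle, 3 for endothelium and 2 for Sertoli and Leydig cells, and with median centring 2, 2 and 1. Epididymal epithelial genes, 15 of 16 on the array, had 1 higher and 1 lower in corn oil rats (Wfdc10a 0.38 ± 0.12 and Crisp1 -0.43 ± 0.16) and 0 passing in DBCP rats. Of the red cell genes, 6 of 10 on the array, 1 fell in corn oil rats (Epb42 -0.22 ± 0.06). In the comparisons of DBCP with corn oil and in the interaction, 0 genes of any of these lists passed limma's test.

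The genes whose deviations were most like the mean of the 6 fibroblast genes over the 78 arrays, out of all named genes, were Igfbp5 (r = 0.77), Igfbp6 (0.77), Igfbp7 (0.76), Ogn (0.76) and C1r (0.75). Without the 2 arrays farthest from the median of the fibroblast mean these were 0.69, 0.63, 0.62, 0.63 and 0.61. The first 3 encode binding proteins of insulin-like growth factors or their relative, and C1r is a complement protease. Most like Col4a1 were Col27a1 (0.75), a fibrillar collagen gene, Avil (0.75), Crybb3 (0.74), Edn2 (0.72) and Hic2 (0.72). Each of the latter 5 passed as lower after recovery in corn oil rats, as Col4a1 did, by 0.14 to 0.17. In that comparison 12.8% of all probe sets were called lower and 11.5% higher. In DBCP rats these 5 were below 0 and did not pass (limma adjusted p from 0.0573 to 0.806). Of the former 5, Ogn (0.59 ± 0.10) and Igfbp6 (0.27 ± 0.10, limma adjusted p = 0.0421) passed as higher in corn oil rats. In DBCP rats Ogn alone of them passed (0.48 ± 0.10), and Igfbp6 had 0.04 ± 0.10 (limma adjusted p = 0.835). Taken singly after these values were seen, Dcn was most like Ogn (0.81), Vim like Apbb1ip (0.87), an adaptor of leukocytes, Col3a1 like Col5a2 (0.83), its relative among fibrillar collagens, and Lum like Sult1d1 at no more than 0.54. These likenesses are descriptions of these arrays and carry no test.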

How the data were processed

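RNA of 78 rat sperm samples was measured on 1 array each, in 4 groups taken from the treatment and recovery labels. The deposited values are log2 levels per probe set made by the authors, with 0 missing. Limma, without a version, is the tool that the submitters' processing notes name, and the sources used here name no background correction or normalization. No further scaling was applied, and precision is limited by the number of arrays.

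The platform annotation gave 1 symbol to 15310 probe sets, several to 323 and none to 13581, and 15279 were found by Entrez identifier among RefSeq genes. A group means model over all 29214 probe sets was fitted with limma 3.58.1 in R 4.3.3, with 5 contrasts and Benjamini-Hochberg adjustment. All adjusted p-values of differences are from limma. The fit was tested on simulated data. Correlations were computed with numpy 2.4.6.

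The genes described, the 12 other gene lists and the tests were chosen with earlier results of these data known. The rule for named genes took every member, from each other list up to 3 passing genes of largest difference in the comparison with most calls, and the 5 genes most like the fibroblast mean and the 5 most like Col4a1. Genes outside the rule are named as such.

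The alternatives were quantile normalization, median centring, brighter probe sets alone, array weights, a trended robust prior, fits on a contrast's own groups, the replicate number as a block, both sets of replicate numbers as a block or apart, leaving out arrays of low weight, leukocyte and sperm levels as covariates, averaged probe sets, a plain t statistic, a threshold of 0.1 and leaving out each array.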

Additional observations from a re-analysis of the deposited data

How the results depend on the processing

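Between DBCP and corn oil, 0 of the 9 genes passed under every alternative listed above, and in the interaction under each that was run (it spans all 4 groups, so fits on a contrast's own groups and the 2-sample t statistic were not run). The lowest limma adjusted p in these fits was 0.081, for Col4a1 at the end of exposure. Shares of all probe sets passing these comparisons are given above for the main fit and the plain t statistic alone. In corn oil rats 4 genes passed over time, and in DBCP rats 3. In corn oil rats 0 passed with the leukocyte level as covariate and 1 in replicate numbers 11 to 20 alone. In DBCP rats 1 passed with the leukocyte level, 1 in numbers 1 to 10 alone, 0 in numbers 11 to 20 alone and 7 with the sperm level as covariate. The cause of these changes in count was not tested. Each set of replicate numbers holds fewer arrays than the full fit, and the sets also differed from each other. Over all probe sets 16.3% passed in numbers 1 to 10 and 1.32% in numbers 11 to 20 in corn oil rats, and 10.4% and 1.73% in DBCP rats. With each array left out in turn the counts were 4 and 3 each time. Brighter probe sets alone leave out Lum and Col4a1.

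The replicate numbers did not pair the samples: same-numbered deviations correlated with medians between -0.08 and 0.06 (range -0.49 to 0.57). With the replicate number as a block the same counts of 4 and 3 genes passed, among 6226 and 3887 probe sets, beside 7108 and 3933 without it.

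Over all probe sets, corn oil and DBCP counts were 4768 and 3035 in numbers 1 to 10 alone, 385 and 505 in numbers 11 to 20 alone, 700 and 6263 with the leukocyte level, 14107 and 8457 with the sperm level, and 4391 and 2658 with probe sets of a gene averaged. Of 2375 calls among brighter probe sets in DBCP rats, 42.6% were higher, beside 54.1%. Median centring moved the higher share in corn oil rats from 47.4% to 63.4%.

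Differences that changed sign were uncalled, except Vim in corn oil rats (-0.064 with the leukocyte level). With that covariate the others were Bgn (0.049 between treatments at the end of exposure, 0.057 after recovery, 0.0081 for the interaction, -0.21 and -0.20 over time in corn oil and DBCP rats), Col3a1 (-0.050 after recovery, 0.054 and 0.083 over time) and Col4a1 (-0.00097 after recovery). So were Dcn (0.0072 at the end of exposure), Sparc (0.088 after recovery, -0.18 over time in DBCP rats) and Vim (0.056 at the end of exposure, 0.12 after recovery, 0.065 for the interaction). With the sperm level they were Col1a2 (-0.025) and Col3a1 (-0.015) in the interaction and Col3a1 (0.023) at the end of exposure. In numbers 1 to 10 alone they were Bgn (-0.0053) and Sparc (-0.022) over time in DBCP rats, Col1a1 (0.028) and Lum (-0.090) after recovery, Col3a1 (0.0057) at the end of exposure, and Col1a2 (-0.024) and Vim (0.073) in the interaction. In numbers 11 to 20 alone they were Col1a2 (0.030) and Col3a1 (0.0024) over time in DBCP rats, Col3a1 (-0.020) after recovery, Sparc (0.13) over time in corn oil rats and Sparc (-0.0080) in the interaction. After recovery Col1a1 was 0.0096 with array weights, 0.024 with quantile normalization and 0.033 without the arrays of low weight, where Col1a2 was 0.020. Col3a1 there was -0.0013 with median centring and -0.0071 with the replicate block. Over time Sparc was 0.0067 with median centring in corn oil rats and Col3a1 0.0053 with array weights in DBCP rats, and Vim was 0.016 in the interaction with quantile normalization. With each array left out, after recovery Col1a1 ran from -0.020 to 0.014, Col3a1 from -0.011 to 0.041, Lum from -0.0067 to 0.077 and Sparc from -0.12 to 0.010. Over time Sparc ran from -0.086 to 0.022 in corn oil and from -0.015 to 0.073 in DBCP rats, and Col3a1 from -0.035 to 0.012 in DBCP rats.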
